A study of Mus musculus with 2 samples.

Results

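The genes described here are 9 by which microglia, the resident macrophages of the brain, are commonly recognised, most of them for surface or secreted products. They are Tmem119, Cx3cr1, Siglech, Fcrls, Olfml3, Slc2a5, Sparc, Crybb1 and Cst3, and they were chosen by symbol from the 55450 genes of the deposited matrices. Each of the 9 symbols matched 1 gene identifier, and each gene passed the minimum of 200 UMIs, along with 11388 genes in all. A UMI, or unique molecular identifier, stands for 1 captured transcript molecule.

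The anesthesia library came from brains of adult male C57BL/6J mice given 100 mg/kg sodium pentobarbital, a barbiturate that enhances GABA-A receptor currents. The awake library came from brains of adult male C57BL/6J mice given normal saline. The treatment note gives 3 mice in each arm, and each arm is 1 droplet library of 3' transcript ends, with no label tying a cell to a mouse. Both used cells sorted from dissociated brain as CD11b-positive with low CD45, after collagenase digestion and a Percoll gradient. There is 1 library per arm, so no difference between them has a replicate check, and every interval below is a 95% interval for counting error only. Treatment and library cannot be told apart.

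The anesthesia library held 9412 barcodes and 61139016 UMIs, and the awake library 8600 barcodes and 53262885 UMIs. After filtering, 8944 and 8223 cells were left, of which 8175 and 7381 were microglia-like by 10 markers that include none of the 9 genes. In these microglia-like cells the marker P2ry12 stood at 1700 CPM (UMIs per 1000000 UMIs of the class) in the anesthesia and 1800 in the awake library. The macrophage markers Mrc1 and Pf4 stood at 10.8 and 2.58 CPM in the anesthesia and 9.79 and 2.81 in the awake library. The libraries share 14 barcode sequences. Median UMIs per microglia-like cell were 5492 in the anesthesia and 5992 in the awake library. The libraries stood apart when clustered together. Each of the 5 microglia-like clusters with more than 1000 cells came almost wholly from 1 library, such as one of 3027 anesthesia and 50 awake cells and one of 73 anesthesia and 3421 awake cells. The library with fewer cells gave 14 to 80 in each of these clusters. The within-cluster ratio took clusters with at least 50 cells from each library, so one of 1905 anesthesia and 14 awake cells was left out. In the large clusters that were kept, the ratio rests on few cells of one library.

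Microglia arise from yolk sac progenitors and keep a gene programme that sets them apart from macrophages of the meninges, perivascular spaces and blood. TGF-beta signalling and the transcription factors PU.1 and Sall1 are known to maintain that programme, and it weakens when microglia take on disease-associated states. By role, Cx3cr1 is the receptor for the neuronal chemokine fractalkine, and Tmem119 is a transmembrane protein used as a microglial surface marker. Siglech is a sialic acid-binding lectin that signals through the adaptor Tyrobp, Fcrls is an Fc receptor-like scavenger receptor of rodents, and Slc2a5 is the fructose transporter GLUT5. Among the secreted products, Cst3 is cystatin C, an inhibitor of cysteine proteases, Sparc is a collagen-binding matricellular protein, and Olfml3 is an olfactomedin-like matrix protein. Crybb1 is a beta-crystallin, best known from the eye lens.

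The genes are spread over the genome (GRCm38, GENCODE M21). On the reverse strand lie Tmem119 at chr5:113793729-113800516, Cx3cr1 at chr9:119901616-120069879, Fcrls at chr3:87250758-87263738 and Olfml3 at chr3:103722222-103738001. Sparc at chr11:55394500-55423183 and Cst3 at chr2:148871722-148875692 are also on the reverse strand. On the forward strand lie Siglech at chr7:55768178-55778925, Slc2a5 at chr4:150119283-150144169 and Crybb1 at chr5:112255815-112269585. All 9 are protein-coding. Of the 9, only Cx3cr1 overlaps other annotated genes, and only the antisense gene Gm33858 shares exon bases with it, on the opposite strand. Counting by strand is not given in the sources used here, so reads of that pair may not be separable.

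Promoter windows of 300 bases were taken from RefSeq (GRCm38.p6) for the 8 genes that matched, all but Tmem119. Each window runs from 250 bases before to 50 after the gene's start in RefSeq and was searched on both strands for 2 motifs. That start can differ from the GENCODE start listed above. The windows of Cst3 and Fcrls, for example, reach further into the gene as listed there. The PU box GAGGAA, read TTCCTC on the other strand, is a sequence bound by PU.1, and it occurred in 3 of the 8 windows and in 28.3% of all 32851 windows. The TATA box TATAAA, read TTTATA on the other strand, occurred in 2 of the 8 and in 13.6% of all. The 2 motifs share no bases in these windows. Shown are the 4 windows with a match, which include the most abundant of the 9 (Cst3), the one with the lowest ratio between libraries (Fcrls) and the one with the highest (Siglech). Capitals mark the motif, and each sequence reads 5′ to 3′ along the gene's strand. They lie at chr2:148875463-148875762 (reverse strand), chr3:87263475-87263774 (reverse), chr7:55767934-55768233 (forward) and chr5:112255570-112255869 (forward).
Cst3: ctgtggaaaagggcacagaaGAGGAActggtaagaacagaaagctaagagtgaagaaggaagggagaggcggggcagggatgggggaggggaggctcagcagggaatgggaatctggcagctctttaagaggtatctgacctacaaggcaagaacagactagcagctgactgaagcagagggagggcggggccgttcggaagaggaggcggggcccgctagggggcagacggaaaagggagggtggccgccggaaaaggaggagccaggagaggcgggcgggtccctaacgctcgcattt
Fcrls: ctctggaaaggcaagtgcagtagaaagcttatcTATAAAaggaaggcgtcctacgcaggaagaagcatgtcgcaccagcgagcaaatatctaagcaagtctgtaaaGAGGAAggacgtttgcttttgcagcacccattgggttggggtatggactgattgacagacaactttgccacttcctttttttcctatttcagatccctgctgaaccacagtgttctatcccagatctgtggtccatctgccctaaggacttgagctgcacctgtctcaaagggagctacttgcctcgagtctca
Siglech: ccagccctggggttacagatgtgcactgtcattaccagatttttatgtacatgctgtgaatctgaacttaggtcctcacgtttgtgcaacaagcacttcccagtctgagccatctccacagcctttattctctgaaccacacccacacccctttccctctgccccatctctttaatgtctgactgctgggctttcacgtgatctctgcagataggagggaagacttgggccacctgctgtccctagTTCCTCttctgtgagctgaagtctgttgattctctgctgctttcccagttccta
Crybb1: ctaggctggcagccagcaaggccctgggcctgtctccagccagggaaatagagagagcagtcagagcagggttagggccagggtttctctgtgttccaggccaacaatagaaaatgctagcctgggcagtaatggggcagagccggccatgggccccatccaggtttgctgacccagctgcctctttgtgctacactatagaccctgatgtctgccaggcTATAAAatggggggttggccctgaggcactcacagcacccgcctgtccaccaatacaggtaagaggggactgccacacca
Fcrls alone of the 8 held both motifs. A match is a run of letters and does not show that a factor binds there.

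Cst3 was the most abundant transcript of microglia-like cells in both libraries. It stood at 46806 CPM in the anesthesia and 49449 in the awake library, about 322 UMIs per cell in each. Counts of 3' ends are not scaled by transcript length, so levels can be set beside each other across genes on this scale. Sparc followed at 2908 CPM in the anesthesia and 3595 in the awake library, and Cx3cr1 at 2896 and 2790. In the anesthesia library the intervals of Sparc (2894 to 2922) and Cx3cr1 (2882 to 2910) overlapped, so their order there is not set. Fcrls stood at 1607 CPM in the anesthesia and 2200 in the awake library, ranks 67 and 43 among all genes.

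The next 3 genes changed places between the libraries. In the anesthesia library the order was Siglech at 1250, Tmem119 at 1133 and Olfml3 at 1103 CPM. In the awake library Tmem119 at 1472 and Olfml3 at 1461 lay above Siglech at 1043, and the intervals of Tmem119 (1461 to 1483) and Olfml3 (1450 to 1472) overlapped. Crybb1 stood at 427 CPM in the anesthesia and 562 in the awake library. Slc2a5 was lowest of the 9 in both, at 195 in the anesthesia and 264 in the awake library. Together the 9 genes took 5.83% of microglia-like UMIs in the anesthesia and 6.28% in the awake library, or 1.15% and 1.34% without Cst3.

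**Figure D1:**
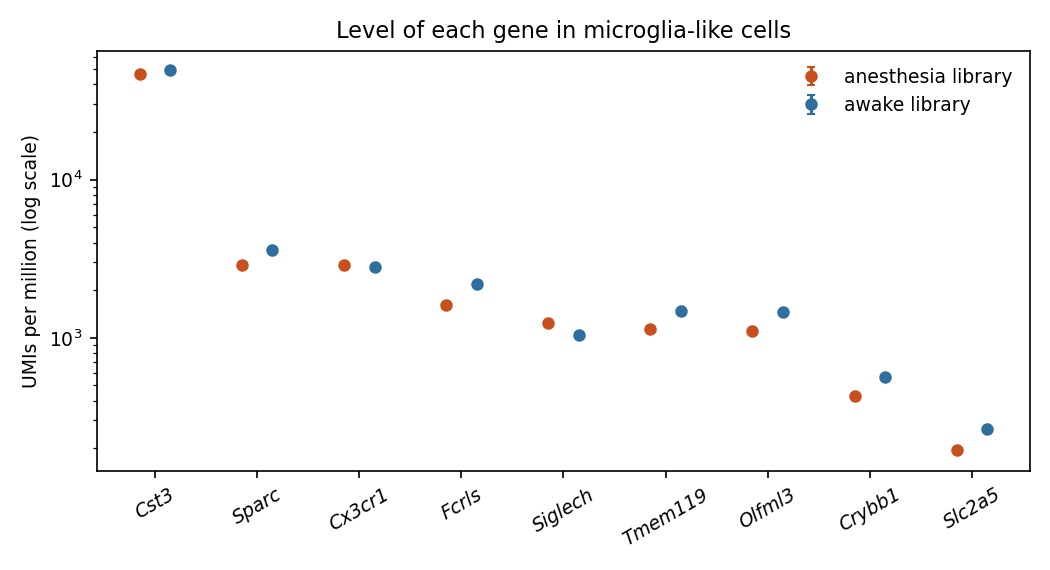
CPM of each gene in microglia-like cells (log scale) of the anesthesia library (orange, left of each pair) and the awake library (blue), with exact Poisson intervals mostly smaller than the points. Cst3 lies more than 10-fold above the next gene in both libraries, and Siglech is the clearest case of a higher value in the anesthesia library.

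Most of the 9 genes took a smaller share of RNA in the anesthesia library, by modest amounts. The log2 ratio of anesthesia over awake was below 0 for 7 of the 9, and their median was -0.38, beside -0.02 for all 11388 measured genes. None of the 9 reached 1.5-fold in either direction, whereas 13.2% of measured genes were at least 1.5-fold higher and 11.9% at least 1.5-fold lower. Fcrls had the lowest log2 ratio, -0.45 (-0.47 to -0.44), followed by Slc2a5 at -0.44 (-0.48 to -0.40) and Olfml3 at -0.41 (-0.42 to -0.39). Crybb1 was at -0.40, Tmem119 at -0.38 and Sparc at -0.31. The most abundant gene, Cst3, was at -0.08.

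The surface receptors did not share a direction. Siglech was higher in the anesthesia library, at a log2 ratio of 0.26 (0.24 to 0.28), which is 1.20-fold. Cx3cr1 was at 0.05 (0.04 to 0.06) and turned below 0 under 6 of the 12 alternative settings, down to -0.04 with edgeR's TMM factors. TMM moved the median of all measured genes to -0.11, and against that median Cx3cr1 stayed above it. Siglech stayed above 0 under each of the 12 (0.17 to 0.30). Tmem119, Fcrls, Olfml3, Slc2a5, Sparc and Crybb1 each stayed below 0 under all 12, and of these only Slc2a5 passed 1.5-fold in any, at -0.60 in the within-cluster ratio. By cluster, Slc2a5 ran from -0.14 (-0.54 to 0.29) to -1.25 (-2.01 to -0.58). The latter was in a cluster led by Clec7a, on 19 anesthesia UMIs. Cst3 was at 0.13 after the GC content and length trend was taken out and at 0.11 in the within-cluster ratio.

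Base composition moved with these ratios. Over all measured genes the median log2 ratio was 0.19 in the 20% of genes with the lowest GC content and -0.20 in the 20% with the highest. Crybb1 (GC 61.8%), Tmem119 (59.1%) and Cst3 (57.2%) lie in the group with the highest GC content, and Siglech (45.5%) lies in the second lowest of 5. With the trend removed, the ratio of Crybb1 was -0.16, against -0.40 before, and that of Sparc -0.16, against -0.31. Tmem119 was then at -0.14, Fcrls at -0.37, Slc2a5 at -0.35, Olfml3 at -0.49 and Siglech at 0.30. The median of the 9 was then -0.16 and that of all genes -0.04. The part of base composition in the ratios was not tested further.

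**Figure D2:**
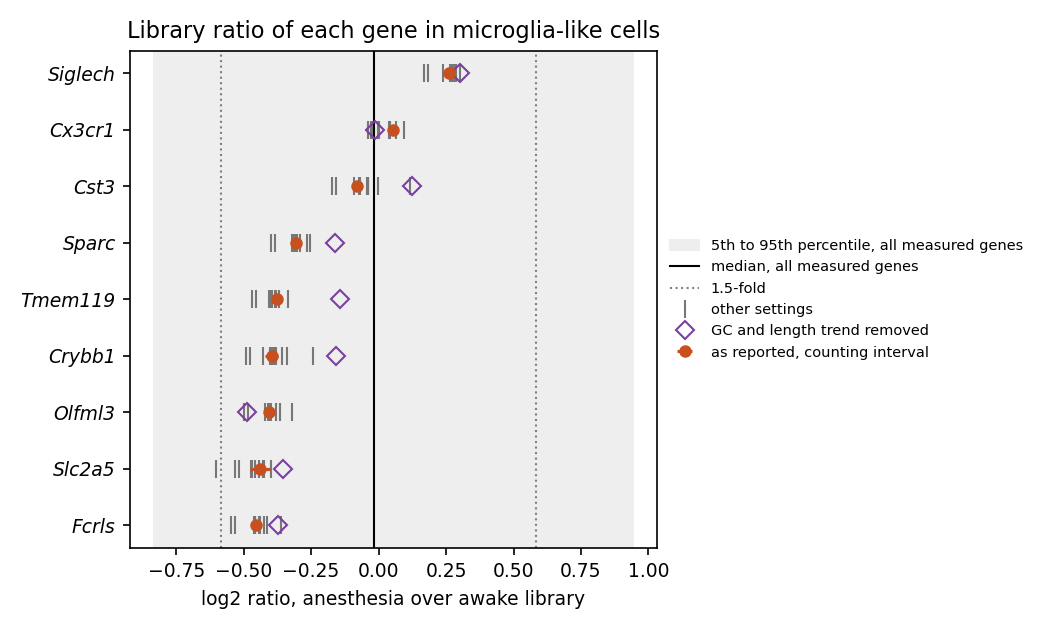
Log2 ratio of anesthesia over awake for each gene in microglia-like cells, as reported (orange circles with counting intervals), under the other settings (grey ticks) and after taking out the GC and length trend (open diamonds). The shaded band spans the 5th to 95th percentile of all measured genes (-0.83 to 0.94), the solid line is their median, and the dotted lines mark 1.5-fold. All 9 circles lie inside the dotted lines.

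Other genes of the microglial programme were at least 1.5-fold lower about as often as genes in general. Of 30 further identity genes, all measured, 0 were at least 1.5-fold higher and 3 were at least 1.5-fold lower in the anesthesia library, beside the 13.2% and 11.9% of all measured genes, with a median log2 ratio of -0.14. The 3 were Bin1, a membrane-curvature protein, at -0.93, the lysophosphatidylserine receptor Gpr34 at -0.76 and the adenosine receptor Adora3 at -0.71. The nucleotide receptor P2ry13 was at -0.58. With TMM factors, which moved the median of all measured genes to -0.11, 7 of the 30 were at least 1.5-fold lower. The share of all measured genes under these factors is not given, so that count has no background here.

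Families and partners of single genes gave mixed values. The counts in these small lists stand beside 13.2% of all measured genes at least 1.5-fold higher and 11.9% at least 1.5-fold lower. Tyrobp, the signalling adaptor used by Siglech, stood at 2008 CPM in the anesthesia and 2333 in the awake library, a log2 ratio of -0.22. Of the 8 measured Siglecs and adaptors 0 were higher and 2 lower by 1.5-fold, namely Siglecg at -0.97 and Siglecf at -0.74, while Cd22 and the adaptor Hcst were both at 0.49. Siglech and its adaptor thus lay on opposite sides of 0. Of 6 measured Fc receptor and Fc receptor-like genes none reached 1.5-fold, and 5 were below 0, with Fcgr1 at -0.55, Fcgr4 at -0.49, Fcgr3 at -0.33 and Fcrl1 at -0.32.

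Among 5 measured chemokine receptor genes, 1 was higher (Ccr6, at 1.97). Ccr1 was lower, at -1.19, and Ccrl2 was at 0.40. Ccr6 rested on 891 UMIs in the anesthesia and 194 in the awake library. Cx3cl1, the ligand of Cx3cr1, had 58 UMIs in the anesthesia and 36 in the awake library and was not measured. Among 7 measured hexose transport and fructose genes, only Slc2a3, the glucose transporter GLUT3, was past 1.5-fold, at 1.06. Slc2a8 was at -0.57, Slc2a9 at 0.48 and ketohexokinase (Khk), which phosphorylates fructose, at -0.33, on the same side of 0 as Slc2a5.

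Crystallins held 4 measured genes, of which Crybb3 was higher, at 1.76, and the small heat shock protein gene Cryab lower, at -0.64. Cryba4, the crystallin gene next to Crybb1, was at -0.45, close to the -0.40 of Crybb1, and Cryl1 was at -0.11. Of 11 measured cystatins and target proteases none reached 1.5-fold, and 7 were below 0 with the rest above it. Cathepsin H (Ctsh) was at -0.58, cystatin F (Cst7) at -0.36, cathepsin Z (Ctsz) at -0.33 and legumain (Lgmn) at -0.29, each lower than the -0.08 of Cst3. Of 2 measured genes of the Sparc and collagen IV list, Sparcl1 was lower at -0.61 and Spock2 was at -0.19. Of 2 measured olfactomedin genes, Olfm4 was higher at 0.59 and Olfml2b was at 0.26, both opposite in sign to Olfml3. The intervals of Sparcl1 (-0.82 to -0.39) and Olfm4 (0.35 to 0.83) also reach inside 1.5-fold.

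Most microglia-like cells fell into states with a counterpart in the other library. When each library was clustered on its own, 5 clusters of one paired with 5 of the other by shared leading genes (17 to 40 of 50). They were led by Klf2 and Tsc22d3, by Ccrl2 and Gpr84, by 4921531C22Rik and Gadd45g, by Clec7a and Lpl, and by Ifit3 and Ifitm3. Outside them were 2 microglia-like clusters without a partner in each library, of 1400 and 53 cells in the anesthesia and 546 and 13 cells in the awake library. The pairing was added after the data were seen and rests on genes other than the 9. Siglech was higher in the anesthesia library in all 5 states, at log2 ratios of 0.24 to 0.46. Tmem119, Fcrls, Olfml3, Slc2a5, Sparc and Crybb1 were lower in all 5. The states of a library share its library, so this is not independent support.

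Within these states 0 of the 9 genes were at least 1.5-fold higher, beside 10.1%, 11.3%, 8.55%, 8.06% and 12.1% of measured genes in the states in the order given. At least 1.5-fold lower were 0 of the 9 in 4 states and 1 in the Clec7a and Lpl state, beside 12.2%, 11.4%, 10.3%, 11.7% and 7.69%. That gene was Fcrls, at 1080 CPM in the anesthesia and 1855 in the awake library, a log2 ratio of -0.78 (-0.86 to -0.71). In the disease-associated cluster found with both libraries clustered together, the same ratio was -0.41 (-0.54 to -0.28), so the value depends on which cells the state includes.

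Sparc and Cst3 were both lower in the Klf2 state than in the other large states in both libraries. Sparc was lowest of the 3 large states in the Klf2 state, at 2575 CPM in the anesthesia and 3149 in the awake library. It was highest in the Ccrl2 state, at 3360 in the anesthesia and 4128 in the awake library. Cst3 stood at 46236 in the anesthesia and 44909 in the awake library in the Klf2 state, and at 51101 and 55622 in the Ccrl2 state. In the 4921531C22Rik state Sparc stood at 2946 in the anesthesia and 3795 in the awake library, and Cst3 at 51062 and 50272. In the anesthesia library Cst3 was thus almost level between the Ccrl2 and 4921531C22Rik states, where Sparc differed.

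A cluster led by Clec7a, Lgals3, Lpl, Cst7 and Apoe, genes of the disease-associated microglial state, split the 9 genes. It held 56 anesthesia and 299 awake cells, and it was set against the other microglia-like cells of the same library. The 9 genes were kept out of the genes used to cluster, but the cells were clustered on genes that may vary with them, so these are descriptions with no test. Slc2a5 stood at 48.9 CPM in the cluster and 196 in other cells of the anesthesia library, and at 117 and 272 in the awake library. Its log2 ratios of cluster over other cells were -2.00 (-2.73 to -1.36) and -1.22 (-1.39 to -1.05). Tmem119 followed at -1.22 in the anesthesia and -0.87 in the awake library, Siglech at -0.88 and -0.71, and Crybb1 at -0.87 and -0.90.

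The secreted genes and Fcrls differed less in this cluster. Cst3 was at -0.10 in the anesthesia and -0.25 in the awake library, Sparc at -0.24 and -0.37, Olfml3 at -0.17 and -0.32, and Fcrls at -0.16 and -0.22. Cx3cr1 lay between, at -0.64 and -0.37. At least 1.5-fold lower in the cluster were 5 of the 9 in the anesthesia library, beside 27.3% of measured genes, and 4 of the 9 in the awake library, beside 8.52%. For comparison, P2ry12 was at -1.56 in the anesthesia and -1.05 in the awake library. The cells of the cluster had median depths of 6714 UMIs in the anesthesia and 7124 in the awake library. The sizes and the place of Fcrls changed with the clustering. In the Clec7a and Lpl clusters of each library clustered on its own (254 anesthesia and 418 awake cells), set against all microglia-like cells of that library, Fcrls was at -0.57 in the anesthesia and -0.25 in the awake library. Tmem119 was at -0.55 and -0.70 there, Siglech at -0.38 and -0.58, and Cx3cr1 at -0.44 and -0.29. Slc2a5 was again the lowest of the 9, at -0.91 in the anesthesia and -1.09 in the awake library.

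A small cluster with few UMIs per cell, led by Cpe and Apoe, showed another order. It held 49 anesthesia and 73 awake cells, with medians of 1975 and 2171 UMIs and mitochondrial shares of 5.34% and 4.92%, beside 2.14% and 1.32% over all microglia-like cells. Cx3cr1 was at -1.54 in the anesthesia and -1.45 in the awake library relative to the other microglia-like cells, and Tmem119 at -0.86 and -1.15. Cst3 was higher there, at 0.77 in the anesthesia and 0.70 in the awake library. Apoe, a lipid carrier that astrocytes and activated microglia express, was 21.5-fold higher than in the other microglia-like cells in the anesthesia and 5.05-fold higher in the awake library. Depth, mitochondrial share and Apoe moved with these values, and their part in them was not tested.

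**Figure D3:**
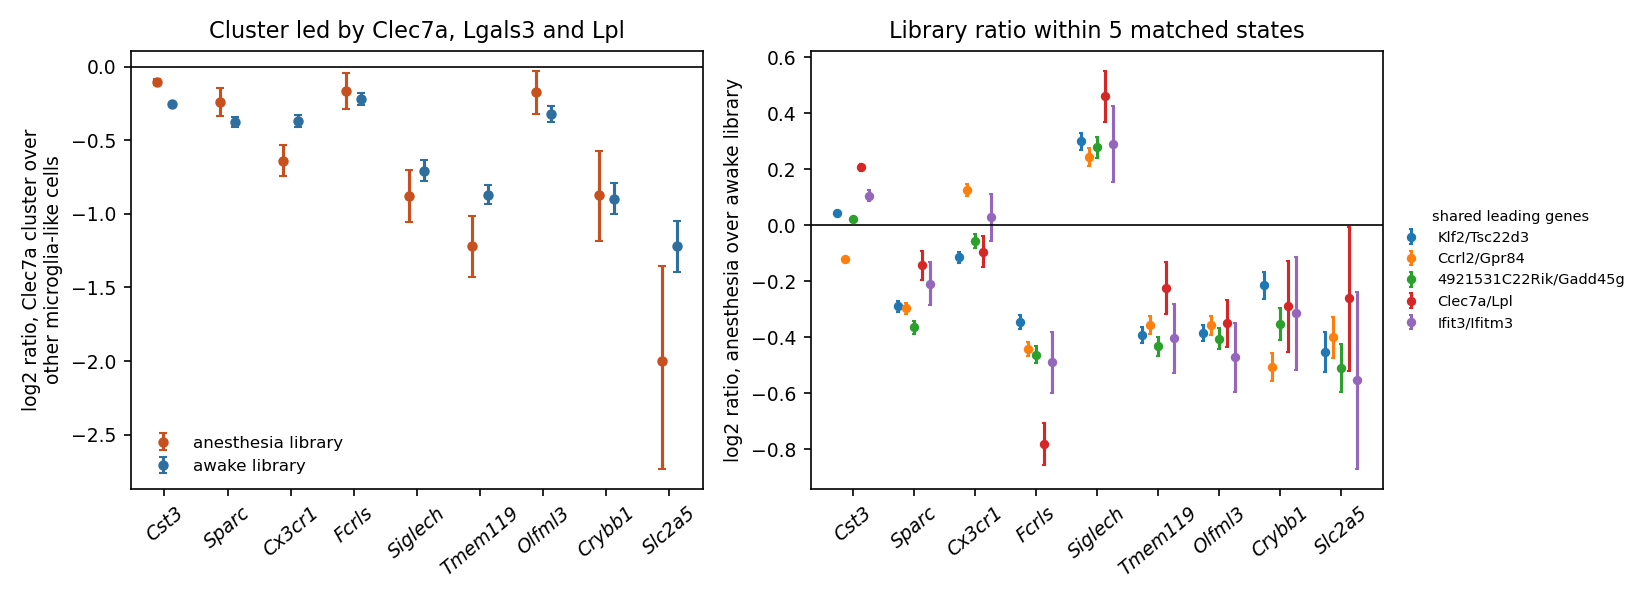
Left, log2 ratio of the cluster led by Clec7a, Lgals3 and Lpl over the other microglia-like cells for each gene, anesthesia library in orange and awake in blue. Right, log2 ratio of anesthesia over awake within 5 matched states, named by leading genes. Bars are counting intervals. Slc2a5 lies lowest on the left, and Siglech is above 0 in all 5 states on the right.

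The spread between cells was near or below that of the median gene for most of the 9 genes and larger for Crybb1. Each cell was thinned to 2000 UMIs, which left out 122 anesthesia and 91 awake cells. Spread is given as overdispersion, the variance beyond Poisson sampling divided by the squared mean, whose square root is a coefficient of variation without sampling noise. Crybb1 had 0.43 (0.35 to 0.51) in the anesthesia and 0.47 (0.40 to 0.55) in the awake library, coefficients of variation of 65.5% and 68.7%. Of all genes with a thinned mean of at least 0.1, 83.1% in the anesthesia and 89.6% in the awake library were less overdispersed than Crybb1.

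Cx3cr1 had the lowest value of the 9, an overdispersion of 0.080 (0.071 to 0.090) in the anesthesia and 0.056 (0.048 to 0.065) in the awake library. Its interval overlapped those of Siglech, Tmem119, Cst3 and Slc2a5 in the anesthesia library, so its place there is not set, and none of the other 8 in the awake library. Cst3 stood at 0.093 and 0.095, Tmem119 at 0.096 and 0.098, and Siglech at 0.086 and 0.11. Sparc had 0.12 in the anesthesia and 0.096 in the awake library, Olfml3 0.13 in both, and Fcrls 0.15 and 0.14. These 7 compare with a median gene at 0.20 in the anesthesia and 0.13 in the awake library. That median is over all genes with a thinned mean of at least 0.1 and is not matched for level. The 7 had thinned means from 2.08 (Siglech, awake library) to 97.5 (Cst3, awake library). Slc2a5 had 0.20 (0.061 to 0.35) and 0.25 (0.14 to 0.36), intervals too wide to place it. The thinned counts of Cst3 ran from 50 to 147 UMIs between the 5th and 95th percentile in the anesthesia and from 48 to 151 in the awake library.

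Detection followed level. At 2000 UMIs per cell, Slc2a5 had a UMI in 31.1% (30.1 to 32.2) of anesthesia and 38.6% (37.5 to 39.7) of awake cells, and in 62.7% and 74.1% without thinning. Crybb1 had one in 51.6% of anesthesia and 59.1% of awake cells, or 80.2% and 86.5% without thinning. Endothelial-like cells, thinned likewise, had a Slc2a5 UMI in 9.68% of 124 anesthesia and 1.89% of 106 awake cells, and a Crybb1 UMI in 16.9% and 15.1%. Their median depths before thinning were 4951 and 5507 UMIs. Tmem119 was seen in 86.9% of anesthesia and 92.4% of awake microglia-like cells, Siglech in 89.7% and 84.7%, and Fcrls in 91.8% and 96.1%. Cx3cr1 and Sparc were seen in over 98% of cells of each library and Cst3 in every cell.

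A thinned cell held a median of 7 of the 9 genes in the anesthesia and 8 in the awake library. All 9 were seen in 10.4% of anesthesia and 17.8% of awake cells, and no more than 3 in 6 and 4 cells. From cell to cell the genes varied largely apart from each other. Over 36 pairs the median Pearson r of thinned counts was 0.04 in the anesthesia and 0.06 in the awake library. Sparc and Cst3 gave the highest r of the 36, 0.32 over 8053 anesthesia cells and 0.33 over 7290 awake cells, which share a library and a fixed depth. Sparse counts lower such values.

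**Figure D4:**
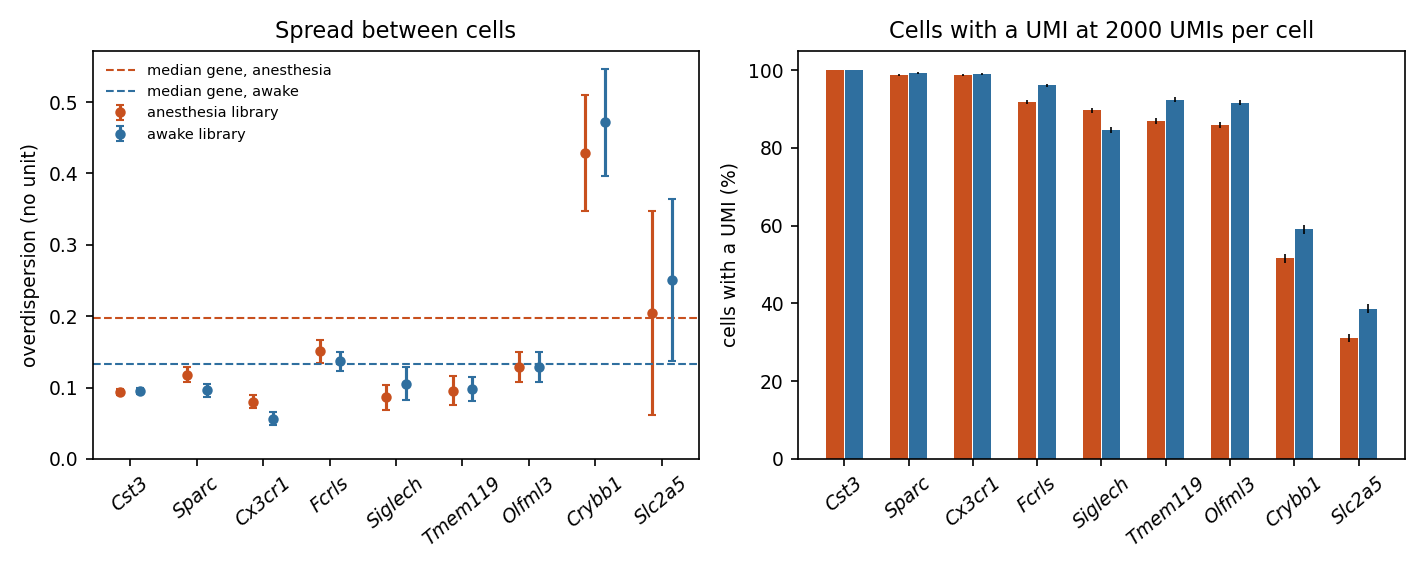
Left, overdispersion of each gene over microglia-like cells thinned to 2000 UMIs, with 95% intervals, for the anesthesia (orange) and awake (blue) library, and dashed lines for the median gene of each. Right, share of those cells with a UMI, with exact binomial intervals. Crybb1 lies above both dashed lines, and Slc2a5 was seen in the fewest cells.

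Against macrophages, the 9 genes differed by less than 2-fold in most cases when all macrophage-like barcodes were used. Border-associated macrophages live at the brain's surfaces and vessels, and a cluster led by Pf4, F13a1, Ms4a7 and Mrc1 held 41 such barcodes in the anesthesia and 52 in the awake library. The median log2 ratio of microglia-like over macrophage-like was 0.26 in the anesthesia library, and 0 of the 9 genes were at least 2-fold higher, beside 0.0577% of 3464 genes. In the awake library the median was 0.92 and 2 of the 9 were at least 2-fold higher, beside 2.48% of 3631 genes. These were Slc2a5 at 1.51 (1.05 to 2.02) and Sparc at 1.06 (0.95 to 1.17). The interval of Sparc reaches below 2-fold. At least 2-fold lower in microglia-like cells were 0 of the 9 in both libraries, beside 1.91% of genes in the anesthesia and 5.76% in the awake library.

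Microglial UMIs in the macrophage-like barcodes moved with this result. Microglial markers outside the 9 (the 5 genes P2ry12, P2ry13, Gpr34, Selplg and Sall1) were summed per barcode. Then the 1st percentile of microglia-like cells of the same library, 0.130% of UMIs in the anesthesia and 0.176% in the awake library, was taken as a limit. Only 2 of 41 macrophage-like barcodes lay under it in the anesthesia library, against 28 of 52 in the awake library. Those above it had a median marker share of 0.367% in the anesthesia and 0.411% in the awake library, and median depths of 13237 and 8876 UMIs. Barcodes under it had 4830 and 5620 UMIs. Microglia-like cells above the limit had a median share of 0.437% in the anesthesia and 0.545% in the awake library. All 5 markers had UMIs in macrophage-like barcodes of both libraries, and their part in the result was not tested.

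Among the 28 awake barcodes low in these markers, the folds were larger for all 9 genes than over all 52, and Tmem119 moved up in the order of folds, past Sparc, Crybb1 and Siglech. This limit was set after the data were seen. It picks barcodes low in 5 microglial markers and leaves the microglia-like cells uncut. Genes that vary with those markers are lowered by the choice itself, so these folds and counts are descriptions with no test. The 5 markers themselves were 6.33-fold (Gpr34) to 10.5-fold (Selplg) higher in microglia-like cells. In the awake library 8 of the 9 genes were then at least 2-fold higher in microglia-like cells, beside 15.3% of 3659 genes. Slc2a5 was 21.2-fold higher (5.87 to 175), on 2 UMIs in the macrophages. Tmem119 was 13.9-fold higher (8.70 to 23.9), at 1472 CPM in microglia-like cells and 106 in the low-marker macrophages. Crybb1 was 7.54-fold, Sparc 6.57-fold, Siglech 5.99-fold and Olfml3 4.90-fold higher.

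Fcrls, Cx3cr1 and Cst3 kept the highest share of their microglial level in those macrophages. Fcrls stood at 2200 CPM in microglia-like cells and 1262 in the 28 macrophages, a fold of 1.74 (1.52 to 2.01), with a UMI in 26 of the 28. Cx3cr1 stood at 2790 and 1057, a fold of 2.64 (2.27 to 3.09), with a UMI in 23 of the 28. Cst3 stood at 49449 and 14451, a fold of 3.42 (3.29 to 3.57). Endothelial-like barcodes under the same limit held 6.22% of the microglial level of Fcrls, 4.02% of that of Cx3cr1 and 11.4% of that of Cst3, against 57.4%, 37.9% and 29.2% in the macrophages. The shared myeloid gene Csf1r held 54.3% of its microglial level in the macrophages and 6.78% in the endothelial-like barcodes. The endothelial-like barcodes also held less of the 5 microglial markers, so the 2 classes are not matched for microglial UMIs. Their median marker share was 0.0187% of UMIs, against 0.0519% in the macrophages. P2ry12 held 5.18% of its microglial level there and 10.0% in the macrophages, and Gpr34 6.50% and 15.8%.

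In the anesthesia library the 2 low-marker macrophages held 9659 UMIs together and allow few statements. They had 6 UMIs of Fcrls, 6 of Cx3cr1 and 67 of Cst3. Tmem119, Slc2a5 and Crybb1 had 0 UMIs there. The counting interval for 0 UMIs there reaches 382 CPM, and by the interval of the ratio Tmem119 was at least 2.97-fold higher in microglia-like cells. The barcodes were picked as low in microglial markers, which itself lowers genes that vary with them, so this bound is a description with no test. For Slc2a5 and Crybb1 the microglial level itself would give no more than a few UMIs in 9659.

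UMIs of the 9 genes also appeared in the other classes of the sort, at different levels in each library. In the 135 endothelial-like barcodes of the anesthesia library, 8 of the 9 genes held 42.8% to 64.6% of their microglial level. In the 113 of the awake library they held 11.4% to 21.2%. The non-member marker P2ry12 held 51.1% in the anesthesia and 15.9% in the awake library, within the range of the 8 genes in each. Under the marker limit, 83 anesthesia and 97 awake endothelial-like barcodes were left, and the 8 genes held 5.47% to 16.5% in the anesthesia and 3.60% to 11.4% in the awake library.

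Sparc was the exception among the 9. It stood at 2908 CPM in microglia-like and 2708 in endothelial-like barcodes of the anesthesia library, and at 3595 and 3585 in the awake library. In endothelial-like barcodes under the marker limit it held 77.1% of its microglial level in the anesthesia and 102% in the awake library, with a UMI in 81 of 83 and 96 of 97 barcodes. In the 21 neutrophil-like barcodes of the awake library Sparc held 20.1% of its microglial level, close to the 20.7% of P2ry12. Brain endothelium is known to make Sparc.

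**Figure D5:**
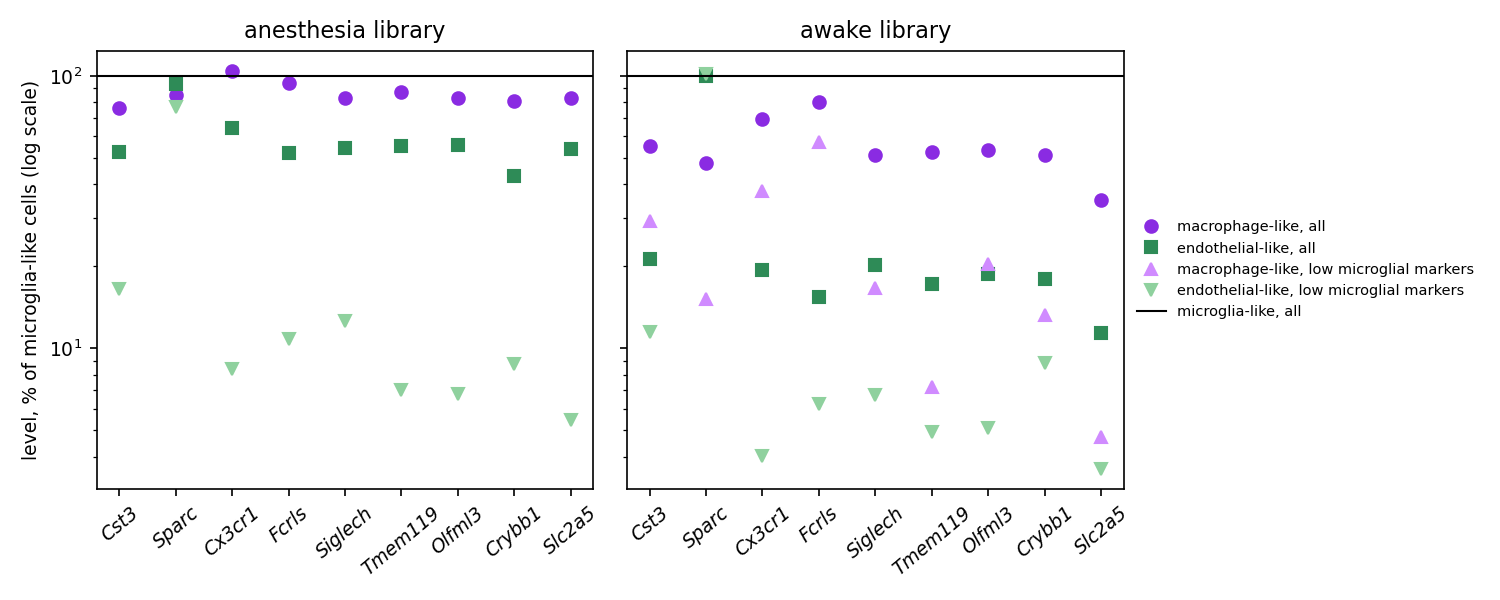
Level of each gene in macrophage-like and endothelial-like barcodes as a percentage of its level in microglia-like cells (black line, log scale), in the anesthesia (left) and awake (right) library. Dark symbols are all barcodes of a class, and light triangles are those low in 5 microglial markers. The 2 anesthesia macrophages under the limit are not drawn. Sparc in endothelial-like barcodes lies near the line in both panels, and Fcrls is the highest of the 9 in low-marker awake macrophages.

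By profile over 4 classes in each library (8 points of log2 CPM plus 1), the genes nearest to each of the 9 among 5449 compared were as follows, as a description. Cx3cr1 lay nearest to Arhgap30 and Prex1 (Pearson r of at least 0.996), and Fcrls to Unc93b1 and Fcgr3 (0.998). Tmem119 lay nearest to Slc35c2 and Cst3, and Cst3 to Tgif2 and Tmem119 (0.992 or above). Siglech lay nearest to Tanc2 and Tgfbr1, Olfml3 to Basp1 and Smap2, and Crybb1 to Ctsl and Kcnk13 (0.991 or above). Slc2a5 lay nearest to Arhgap22 (0.986) and Selplg (0.984). Sparc had the least close neighbours, Lims1 (0.975) and Glul (0.957). The points of a class share their barcodes, and all classes hold microglial UMIs as given above.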

How the data were processed

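Single-cell 3' transcript counts were analysed from 2 libraries of sorted mouse microglia, 1 per treatment. The deposited matrices hold UMI counts per gene and barcode made by the authors. The submitters' processing notes name bcl2fastq, Cell Ranger 3.1.0 and GRCm38, while the file headers name Cell Ranger 4.0.0. How barcodes were filtered before deposit is not given in these sources.

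Barcodes under 500 genes or 1000 UMIs, or with over 10% mitochondrial UMIs, were dropped. A joint clustering covered both libraries, in scanpy 1.11.5 (2000 variable genes, 30 components, 15 neighbours, Leiden resolution 0.6). Neither the variable genes nor the markers held any of the 9 genes, and immediate-early, cytokine and heat shock genes were also left out of the variable genes. A cluster was called microglia-like when at least 7 of 10 markers were seen in at least 25% of its cells and no more than 1 leading gene marked another class. Scrublet called 1 anesthesia cell and 0 awake cells, so it did not work here, and leaving out the highest 8% of its scores was an alternative. Unnamed clusters held 508 anesthesia and 615 awake cells and were left out.

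UMIs were summed per library and class and divided by the total. Intervals were exact Poisson for levels, exact conditional binomial for ratios and Clopper-Pearson for shares, and normal for overdispersion. Genes needed 200 UMIs over both libraries, and folds of 1.5 between libraries and 2 against macrophages (at least 50 CPM in either class) set the counts. No test between libraries was possible, and no p-value is given. DESeq2 1.42.0 and edgeR 4.0.16 supplied scaling factors only. All 55450 gene identifiers matched GENCODE M21, and the 108 symbols on several identifiers were kept as separate genes.

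The 9 genes and the gene lists were chosen with earlier results of these data known. Besides the 9, the text names up to 4 measured genes of each list with the largest absolute ratio, ligand and adaptor partners, and the 2 nearest genes by profile (at least 20 CPM). P2ry12, Csf1r, Mrc1, Pf4 and the state markers are named as references. Some genes that the rule selects are not reported here. The calculations were tested on simulated counts.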

Additional observations from a re-analysis of the deposited data

Results flagged for a closer look

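Cx3cr1 and Cst3 had library ratios of opposite sign in different matched states, with counting intervals on both sides that leave out 0. There is 1 library per arm, so the difference between states was not tested. Cx3cr1 had a log2 ratio of anesthesia over awake of 0.13 in the Ccrl2 and Gpr84 state, but -0.12 in the Klf2 and Tsc22d3 state, -0.057 in the 4921531C22Rik and Gadd45g state and -0.094 in the Clec7a and Lpl state. Cst3 had -0.12 in the Ccrl2 and Gpr84 state, but 0.042 in the Klf2 and Tsc22d3 state, 0.023 in the 4921531C22Rik and Gadd45g state, 0.21 in the Clec7a and Lpl state and 0.10 in the Ifit3 and Ifitm3 state. The other 7 genes kept 1 sign in all 5 states. These signs may depend on scaling and clustering. Over all microglia-like cells, TMM factors moved Cst3 from -0.08 to -0.17 and Cx3cr1 from 0.05 to -0.04. A shift of that size exceeds the smaller values above. In the clusters of both libraries together, Cst3 was above 0 in each one compared, from 0.0068 (-0.015 to 0.029) to 0.24. Cx3cr1 ran there from -0.23 to 0.099.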

How the results depend on the processing

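No paired analysis was possible because each arm is 1 library. The median log2 ratio of the 9 genes, -0.38, was -0.47 with TMM factors, -0.46 with DESeq2 size factors, -0.34 without mitochondrial, ribosomal protein, hemoglobin and rRNA-like genes and Malat1 in the total, and -0.40 without cells over 10000 UMIs. It was -0.39 with each cell weighted alike, -0.25 in the within-cluster ratio, -0.34 within matched states, -0.41 without the disease-associated cluster and -0.16 after taking out the GC and length trend. Relative to the median of all genes it was -0.36 under TMM and as reported, -0.20 within clusters and -0.12 with the trend removed. Then 1 gene, Slc2a5, passed 1.5-fold lower in the within-cluster ratio. Of 30 other identity genes, 3 were lower, but 0 at 2-fold and 7 with TMM factors. No share of all measured genes is given for the alternative settings of this list or of the smaller ones. Among the smaller lists, taking genes with at least 1 UMI in each library gave 6 higher chemokine receptor genes, against 1. With TMM factors 1 gene each of the Fc receptor, hexose and cystatin lists was lower, against 0, and 0 olfactomedin genes were higher, against 1. With macrophages taken as cells with at least 3 UMIs of 6 markers (95 anesthesia and 124 awake cells), the median specificity was 0.12 in the anesthesia and 0.40 in the awake library, and 0 awake genes passed 2-fold. In the awake library it was 1.26 with 6 genes past 2-fold with each cell weighted alike, and 5 passed with each library clustered on its own. With barcodes low in 5 microglial markers, a choice that itself lowers genes varying with them, it was 2.58 with 8 genes. Median overdispersion, 0.12 in the anesthesia and 0.11 in the awake library, was 0.14 and 0.081 within the largest cluster. The other 58 summary values moved no further than their counting error or than 1.5 times for a count. Of the values for single genes and lists, 165 did likewise and 142 moved further. The causes of these shifts were not tested. Alternatives on matched states, the disease-associated cluster and marker-low barcodes were chosen after seeing the data. Numbers of cells limit the macrophage comparison, with 2 marker-low macrophages in the anesthesia and 28 in the awake library.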
